A study of Mus musculus with 18 samples.

Results

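The genes described here are 39 mouse genes of fatty acid oxidation, most of them reported targets of the nuclear receptor PPARA, chosen by symbol from a fixed list. That list was made with earlier results of these data known, so counts over the members are descriptions only. All 39 symbols were found, each once, among the 55401 genes of the expression tables, and all 39 were annotated as protein coding. By role they comprised 4 acyl-CoA thioesterases, 5 genes of fatty acid activation and the carnitine shuttle, 11 of mitochondrial beta oxidation, 7 of peroxisomal beta oxidation, 5 of lipid uptake, binding and droplets, and 7 secreted proteins, regulators and other targets.

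Polyadenylated RNA from colon, lung and liver of C57BL/6N mice was sequenced after treatment with RECTAS, a small molecule known for correcting aberrant splicing of certain exons. The animals were 7 weeks old and received RECTAS by mouth at 100 mg/kg in 0.5% carboxymethyl cellulose, or that vehicle alone, with doses 4 h apart, and tissue was taken 8 h after the first dose. Each of the 6 combinations of tissue and treatment had 3 libraries, 18 in all, numbered 1 to 3 below as in the labels. Nothing in the labels ties the 3 libraries of a group to different animals. A p-value below therefore reflects only how these libraries spread, which may be technical. The labels also do not say whether different tissues came from the same animals. The main fits across tissues treated all libraries as independent.

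Levels are in TPM, the relative abundance of a gene's transcripts scaled for their length, so they can be compared between genes. They sum to the same total in every library and keep no sequencing depth, so the depth behind a value is unknown and its precision rests on 3 libraries a group. Every tissue held the marker of its own cell type: Alb ran from 57361 to 75688 TPM in liver, Sftpc from 28612 to 35899 TPM in lung and Slc26a3 from 171 to 419 TPM in colon. In these bulk samples fewer cells of a type and less RNA per cell cannot be told apart.

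PPARA is a receptor for fatty acids that pairs with a retinoid X receptor on DNA elements built from repeats of a hexamer, and it drives the liver's response to fasting. Its targets take up fatty acids (Cd36), bind them in the cytosol (Fabp1, Fabp2), link them to coenzyme A (Acsl1), pass them into mitochondria through carnitine (Cpt1a, Slc25a20, Cpt2) and shorten them by repeated beta oxidation in mitochondria and peroxisomes. Other targets turn fuel use or signal to other organs, among them Pdk4, Angptl4 and Fgf21.

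The stretches of DNA before the start sites are shown for the members whose letters come nearest to a PPARA element. The element searched was a direct repeat of the hexamer AGGTCA with 1 free base between the copies, on both strands of the 250 bases before each start site in RefSeq (GRCm38.p6), with up to 2 of its 12 fixed bases mismatched. RefSeq promoter entries matched 33 of the 39 members, in 38 windows; Acaa2, Angptl4, Crat, Decr1, Hsd17b4 and Vnn1 had no match in the table used. A match was present in 5 member windows (13.2%) and in 1063 of all 32851 windows (3.24%). With at most 1 mismatch the counts were 1 member window (2.63%) and 159 of all windows (0.484%). Capitals mark the matching 13 bases and lower case the flanks, 5′ to 3′ on the gene's strand.
Fabp1, chr6:71199802-71199834, plus strand: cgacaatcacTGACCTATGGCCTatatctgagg
Cd36, chr5:17835937-17835969, minus strand: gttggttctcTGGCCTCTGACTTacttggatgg
Plin2, chr4:86670262-86670294, minus strand: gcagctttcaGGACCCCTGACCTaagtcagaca
Creb3l3, chr10:81092778-81092810, minus strand: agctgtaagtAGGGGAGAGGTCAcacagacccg
Acot4, chr12:84038356-84038378, plus strand: ccccgaagcaTGACCTTTGGCCG

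The Fabp1 match has 1 mismatch and lies 67 to 55 bases before the RefSeq start site. The other matches have 2 mismatches. The Cd36 and Creb3l3 matches lie inside the GENCODE gene spans, before start sites downstream of the outermost one, and none of the 5 matches overlaps a GENCODE exon. A match is a description of letters, not a binding site or a cause, and a window with no match says only that these letters are not in it. Fabp1 is the most abundant member in liver, so its window is given up to the first base of the GENCODE gene, with the match in capitals.
Fabp1, chr6:71199629-71199826, plus strand: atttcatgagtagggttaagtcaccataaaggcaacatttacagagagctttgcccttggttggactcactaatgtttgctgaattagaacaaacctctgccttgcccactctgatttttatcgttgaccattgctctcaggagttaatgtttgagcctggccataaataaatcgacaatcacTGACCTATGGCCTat

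Hadha and Hadhb, which encode the subunits of the mitochondrial trifunctional protein, lie head to head on chromosome 5 with 85 bases between their GENCODE spans. These bases are shown because both genes are read outward from them; they hold 69.4% G and C and 9 CpG dinucleotides.
Hadha-Hadhb, chr5:30155163-30155247, plus strand: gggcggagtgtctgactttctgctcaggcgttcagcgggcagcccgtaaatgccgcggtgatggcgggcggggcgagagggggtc

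The other close neighbours were copies of each other. Acot2, Acot1, Acot4 and Acot3 stood in this order on the plus strand of chromosome 12, with gaps of 15616, 20007 and 3542 bases, and Acaa1b and Acaa1a lay 182582 bases apart on chromosome 9. Coding sequences of Acot1 and Acot2 were identical at 95.3% of 1236 aligned bases with an identical run of 273 bases, and those of Acaa1a and Acaa1b at 96.5% of 1272 bases with a run of 327 bases. Reads could be split between such copies, so the division of signal within each pair is uncertain.

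The first comparison concerned where the members are expressed, in the 9 vehicle libraries. Of the 39 members, 24 had their highest vehicle mean in liver, 12 in colon and 3 in lung. At 100 TPM or more stood 19 members in liver, 15 in colon and 4 in lung. Acot3 and Fgf21 were under 1 TPM in both lung and colon, Acot4 in lung alone and Plin5 in colon alone, and no member was under 1 TPM in liver.

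**Figure D1:**
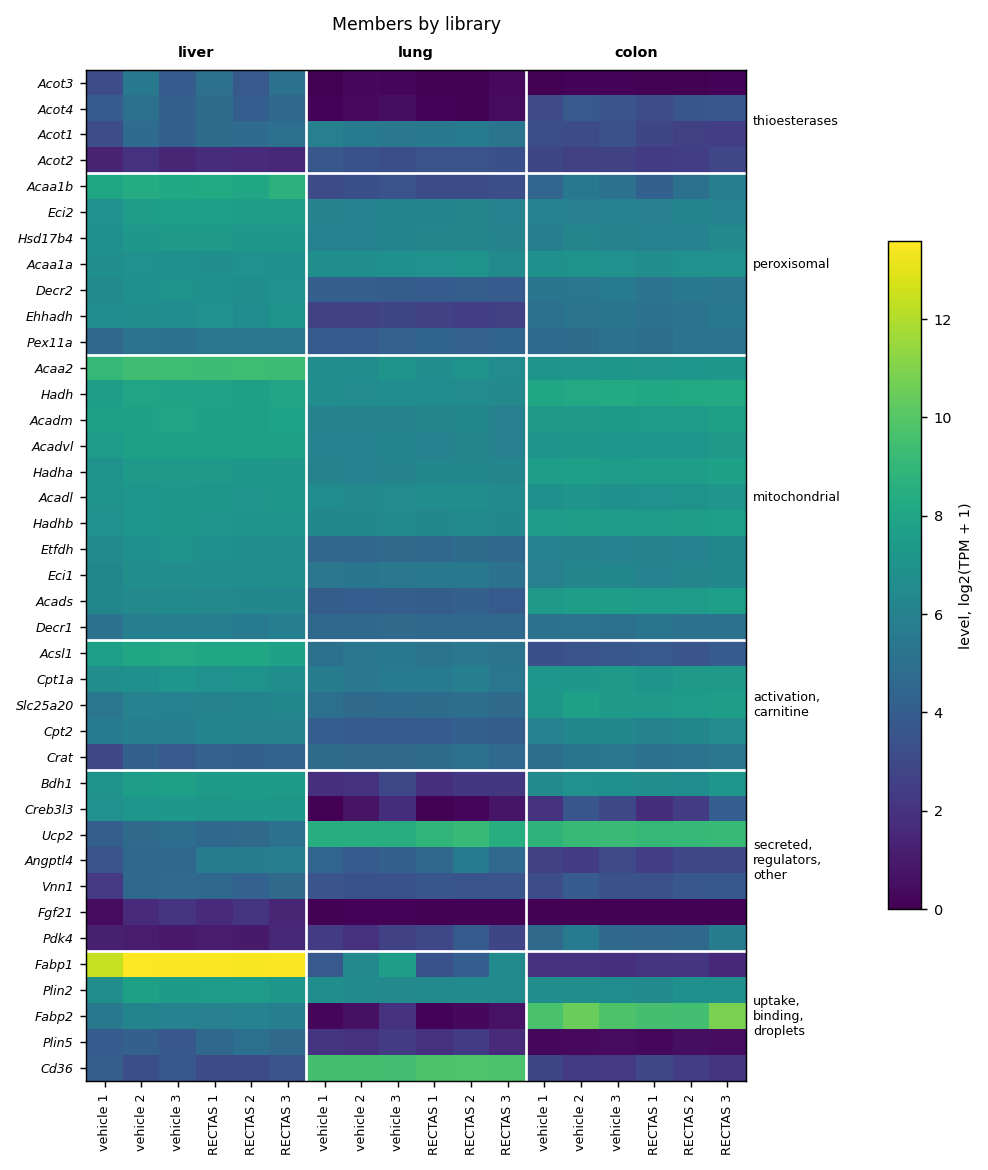
Level of the 39 members (rows, ordered by role) in the 18 libraries (columns, by tissue and treatment), as log2(TPM + 1) on the colour scale. Fabp1 stands out in liver, Cd36 in lung and Fabp2 in colon, and liver vehicle library 1 is darker, that is lower, than the other liver columns for most members.

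The mean level over all 39 members, on the log2(TPM + 1) scale, was 5.15, 5.39 and 5.31 in the colon vehicle libraries and 5.16, 5.28 and 5.48 with RECTAS. In lung it was 4.43, 4.47 and 4.68 with vehicle and 4.46, 4.61 and 4.49 with RECTAS. In liver it was 5.66, 6.24 and 6.16 with vehicle and 6.24, 6.17 and 6.27 with RECTAS. The treatment groups overlapped in all 3 tissues, and in liver vehicle library 1 lay below the other 5 libraries. Summed over the members, liver held 8847, 16732 and 15896 TPM with vehicle and 15973, 15258 and 16113 TPM with RECTAS.

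A fatty acid carrier made up the largest share of each tissue's sum. Fabp1, the liver fatty acid binding protein, made up 61.3% to 73.1% of the members' sum in liver libraries. Cd36, a fatty acid translocase at the cell surface that is also abundant on capillary endothelium, made up 27.6% to 33.8% in lung. Fabp2, the intestinal fatty acid binding protein, made up 18.3% to 33.7% in colon.

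In vehicle liver Fabp1 stood at 9691 ± 3717 TPM (SD, n = 3), against 2.89 ± 0.155 TPM in colon. Next in liver came the thiolase Acaa2 of the last step of mitochondrial beta oxidation at 624 ± 81.7 TPM, the peroxisomal thiolase Acaa1b at 288 ± 34.1 TPM and the acyl-CoA synthetase Acsl1 at 249.8 ± 47.9 TPM. The first was above the second in every vehicle library, while Acaa1b and Acsl1 overlapped.

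Vehicle colon was led by Fabp2 at 1043 ± 318 TPM, the mitochondrial carrier Ucp2 at 553.9 ± 80.7 TPM and the hydroxyacyl-CoA dehydrogenase Hadh at 291.1 ± 25.2 TPM. Vehicle lung was led by Cd36 at 749.8 ± 25.1 TPM and Ucp2 at 350.6 ± 4.70 TPM, whose ranges did not meet, followed by Acaa2 at 112.7 ± 13.98 TPM. Fabp1 in vehicle lung was 95.8 ± 89.96 TPM, an SD close to its mean.

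Liver against colon, of the 38 members tested (Fgf21 was too low), 21 were higher in liver and 12 lower at a limma adjusted p under 0.05, where 16.1% of all 16715 genes were higher and 63.8% lower. The largest differences toward liver, on the log2(TPM + 1) scale, were Fabp1 at 11.20 (SE 0.80, adjusted p = 1.2e-06), Acsl1 at 4.47 (SE 0.17, adjusted p = 1.9e-08), and Creb3l3, a liver transcription factor of lipid metabolism, at 4.24 (SE 0.48, adjusted p = 2.7e-05). Toward colon they were Ucp2 at -4.54 (SE 0.19, adjusted p = 3.5e-08), Fabp2 at -4.09 (SE 0.41, adjusted p = 1.2e-05), and Pdk4, the kinase that turns off pyruvate dehydrogenase, at -3.89 (SE 0.28, adjusted p = 1.2e-06). The 5 without a call were Acaa1a, Acadl, Bdh1, Vnn1 and Pex11a.

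By role, the 7 peroxisomal genes comprised 5 that were higher in liver than in colon, Acaa1b, Ehhadh, Hsd17b4, Eci2 and Decr2, and 2 without a call, Acaa1a and Pex11a. The calls ran from 1.06 for Hsd17b4, the D-bifunctional protein, to 3.15 for Acaa1b. Of the 5 genes of activation and the carnitine shuttle, Acsl1 was higher and the other 4 were lower: Slc25a20, the carnitine-acylcarnitine carrier, at -1.65, Crat, carnitine acetyltransferase, at -1.52, and the carnitine palmitoyltransferases Cpt2 of the inner membrane at -0.45 and Cpt1a of the outer membrane at -0.33. Of these, Cpt2 turned positive under median ratio scaling and quantile normalisation and Cpt1a under the former. The 11 mitochondrial beta oxidation genes were split, with 6 higher, 4 lower and Acadl without a call. Among the acyl-CoA dehydrogenases, Acads, for short chains, was lower in liver at -1.15, while Acadm, for medium chains, was higher at 0.46 and Acadvl, for very long chains, at 0.51.

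The median of all genes was itself -0.68 in this contrast, and median ratio scaling moved it by 0.66. After that scaling 30 members were higher and 4 lower in liver (Pdk4, Fabp2, Slc25a20 and Ucp2), where 35.5% of all genes were higher and 37.2% lower, and Cpt1a, Hadha, Hadh, Cpt2, Acaa1a and Hadhb turned from negative to positive. Quantile normalisation gave 25 higher and 9 lower, where 34% of all genes were higher and 38.2% lower.

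Liver against lung, 29 of 38 members were higher in liver and 6 lower, where 13.5% of all genes were higher and 74.5% lower. Fabp1 differed by 7.23 (SE 0.80, adjusted p = 1.8e-05), Creb3l3 by 6.25 (SE 0.48, adjusted p = 1.2e-06) and Bdh1, which converts between the ketone bodies, by 5.17 (SE 0.31, adjusted p = 2.4e-07). The 6 lower in liver were Cd36 at -5.85, Ucp2 at -3.89, Acot2 at -1.87, Acot1 at -1.59, Pdk4 at -1.27 and Crat at -1.08, of which Crat turned positive under median ratio scaling and quantile normalisation and Pdk4 under the latter. The thioesterases Acot1 and Acot2 cleave acyl-CoA in cytosol and mitochondria. Their less similar copies Acot3 and Acot4 ran the other way, higher in liver by 4.01 and 4.02. After median ratio scaling, which moved the median of all genes by 1.02, 32 members were higher and 3 lower (Cd36, Acot2 and Ucp2), against 35.4% and 40.9% of all genes. After quantile normalisation they were 32 and 3 (Cd36, Ucp2 and Acot1), against 34.6% and 41.6%.

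Lung against colon, 7 members were higher in lung and 24 lower, where 51% of all genes were higher and 24.7% lower. Cd36 was higher in lung by 7.07 (SE 0.22, adjusted p = 7.6e-09) and Acot1 by 2.40 (SE 0.33, adjusted p = 0.000115). Fabp1 was also among the 7. Its vehicle lung values, from 12.7 to 191 TPM, varied together with liver markers, as described below for lung. Fabp2 was lower in lung by -9.08 (SE 0.41, adjusted p = 6.3e-08), Bdh1 by -4.47 (SE 0.31, adjusted p = 1.2e-06) and Acads by -3.45 (SE 0.09, adjusted p = 2.8e-09). Of the 11 mitochondrial beta oxidation genes, all 11 were lower in lung, from -0.28 for Acaa2 to -3.45 for Acads, and under the 3 other scalings they stayed lower except that Acaa2 lost its call in 2 of them. Median ratio scaling moved the median of all genes by -0.34 and gave 6 higher and 28 lower, where 36.4% of all genes were higher and 36.3% lower.

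The second comparison set RECTAS against vehicle within liver. No member passed at a limma adjusted p under 0.05, where 0.0167% of all 11944 genes passed. An unadjusted limma p under 0.05 was found for 4 of 39 members and for 1388 of the 11944 genes. The difference was positive in 32 of 39 members, against 39.97% of all genes, and its median was 0.12 against -0.04 over all genes, on the log2(TPM + 1) scale. RECTAS and vehicle libraries did not overlap for 5 members, all with RECTAS higher, where 5.75% of all genes had RECTAS higher and 13% had it lower. That balance rested on 1 library: without vehicle library 1, 12 of 39 members were positive, against 32.6% of all genes, the median was -0.05 and that of all genes -0.06. With median ratio scaling 38 of 39 were positive, against 51.4% of all genes, and 12 had separate groups with RECTAS higher, where 10.2% of all genes did and 8.17% had it lower.

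Angptl4, a secreted inhibitor of lipoprotein lipase, was at 9.97, 22.8 and 22.6 TPM with vehicle and at 53.2, 53.6 and 54.4 TPM with RECTAS. Every RECTAS library was above every vehicle library by a wide margin, and the RECTAS libraries lay close together. The difference was 1.58 (SE 0.29), and its limma adjusted p of 0.175 missed the threshold. It passed in a single fit of all 18 libraries (adjusted p = 0.0271), which called 94 of 17537 genes, and without vehicle library 1 (1.21, adjusted p = 0.00406), where 6 of 11786 genes passed, and over all alternatives it ran from 1.21 to 1.77 with adjusted p from 0.00406 to 0.507.

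Plin5, a coat protein of lipid droplets in oxidative tissues, was at 14.1, 16.96 and 11.8 TPM with vehicle and at 21.8, 29.6 and 25.2 TPM with RECTAS. The groups did not overlap, and vehicle library 1 lay between the other vehicle libraries. The difference was 0.80 (SE 0.16, adjusted p = 0.197), and 0.80 again without vehicle library 1.

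Both carnitine shuttle genes of the inner mitochondrial membrane had separate groups. Cpt2 was at 46.5, 56.5 and 57.3 TPM with vehicle and 68.8, 66.4 and 65.9 TPM with RECTAS, a difference of 0.33 (SE 0.10, adjusted p = 0.317). Slc25a20 was at 39.4, 63.2 and 62.6 TPM with vehicle and 65.9, 69.2 and 74.0 TPM with RECTAS, a difference of 0.37 (SE 0.18, adjusted p = 0.491). In both, vehicle library 1 was the lowest, and without it the differences were 0.23 and 0.14.

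Pex11a, a membrane protein of peroxisome division, was at 22.8, 34.6 and 33.3 TPM with vehicle and 39.7, 39.8 and 38.8 TPM with RECTAS. Vehicle library 1 was again the lowest, and the RECTAS libraries lay close together above all vehicle libraries. The difference was 0.40 (SE 0.15, adjusted p = 0.408), and 0.21 without vehicle library 1.

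**Figure D2:**
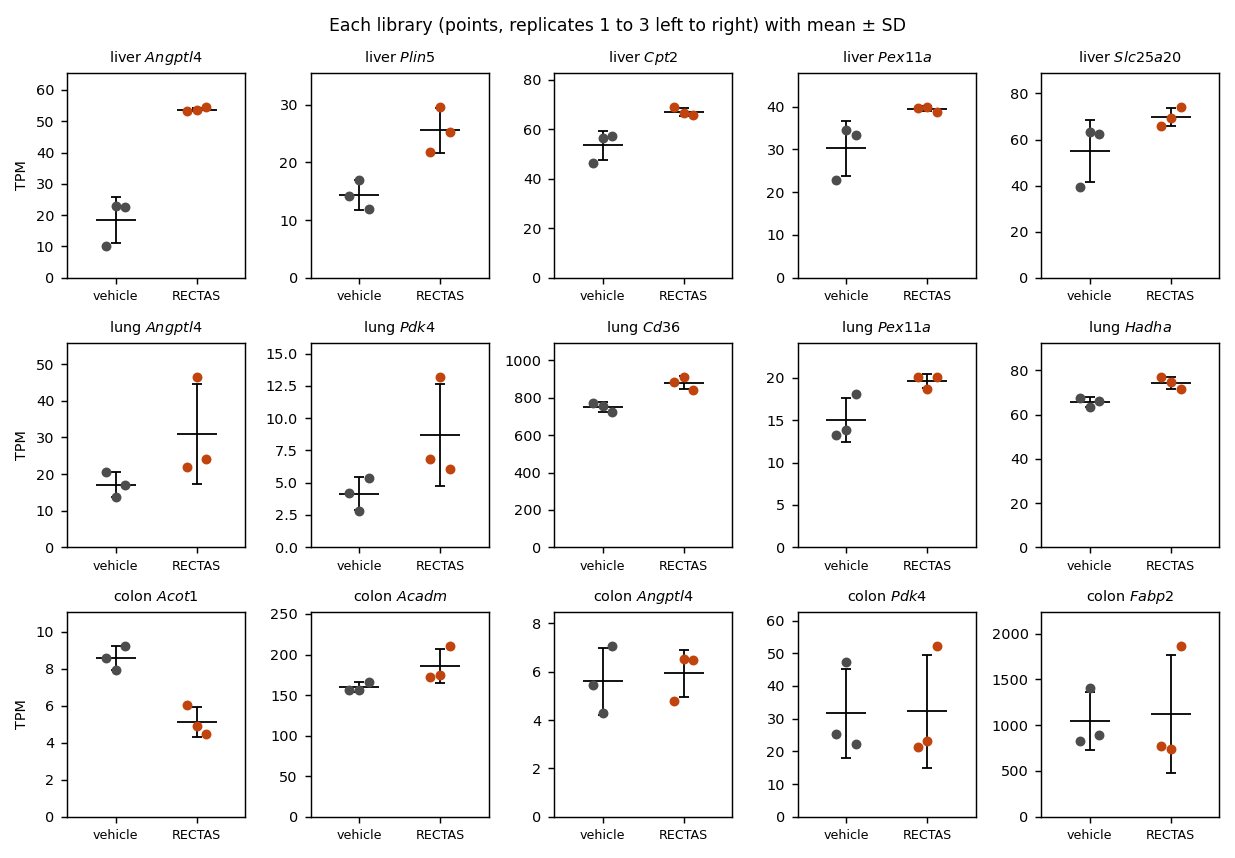
TPM in each library (points) with the group mean and SD (bars, n = 3) for 5 members in liver (top), lung (middle) and colon (bottom), vehicle beside RECTAS. In liver Angptl4 the 3 RECTAS libraries sit between 53.2 and 54.4 TPM and the vehicle libraries between 9.97 and 22.8 TPM; in colon Acot1 the RECTAS libraries sit below all vehicle libraries.

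The other liver members overlapped between groups. Fabp1 was at 5426, 12238 and 11409 TPM with vehicle and 11562, 10979 and 11618 TPM with RECTAS. Vehicle library 1 was far below the other 5, which spanned 10979 to 12238 TPM, and the difference of 0.32 turned to -0.05 without it. Acot1 was at 8.37, 26.3 and 17.5 TPM with vehicle and 27.0, 25.8 and 29.8 TPM with RECTAS, with vehicle library 2 inside the RECTAS range (0.76, adjusted p = 0.458). Fgf21, a hormone released by fasted liver, was at 0.320, 2.2 and 3.25 TPM with vehicle and 2.15, 3.20 and 1.72 TPM with RECTAS.

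**Figure D3:**
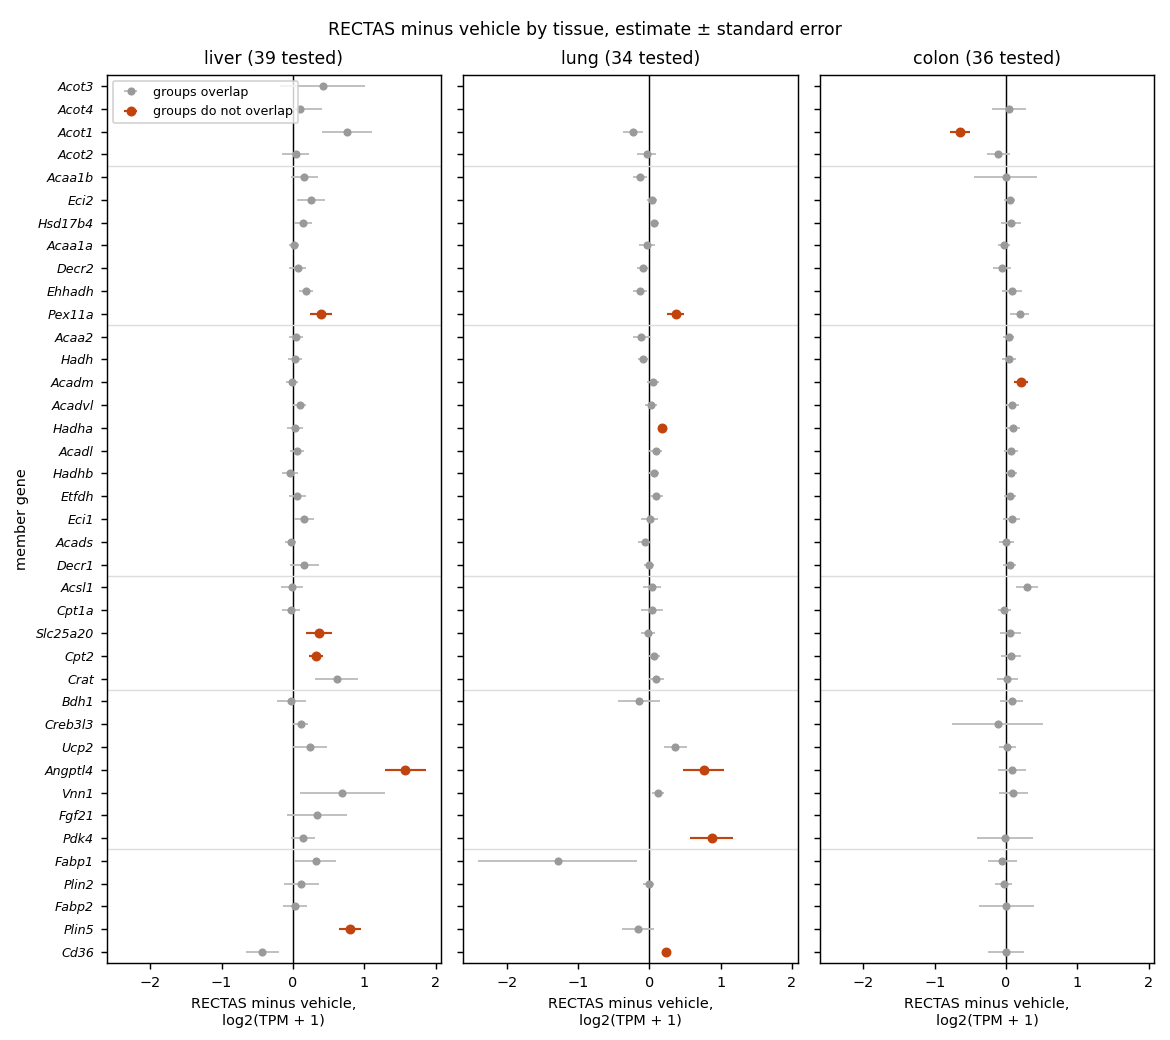
RECTAS minus vehicle difference of each member in liver, lung and colon, as log2(TPM + 1) with its standard error from limma (n = 3 a group). Members whose groups do not overlap are orange, 5 in liver, 5 in lung and 2 in colon; no difference passed an adjusted p of 0.05.

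Liver vehicle library 1 was lowest of the 6 liver libraries in 35 of 39 members (89.7%), against 31.7% of all genes tested. The exceptions were Acaa1b, Cd36, Pdk4 and Plin5. Its level was a median of 73.4% of the mean of vehicle libraries 2 and 3 over the members and 93.4% over all genes. It fell under 50% of that mean for 7 members, Fgf21 at 11.7%, Vnn1, a pantetheinase, at 16.6%, Acot3 at 29.0%, Acot1 at 38.2%, Crat at 41.8%, Angptl4 at 43.9% and Fabp1 at 45.9%, against 3.38% of all genes. Cd36 went the other way at 161%, and Acaa1a, Acadm and Ehhadh were at 92.5%, 90.7% and 95.2%.

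**Figure D4:**
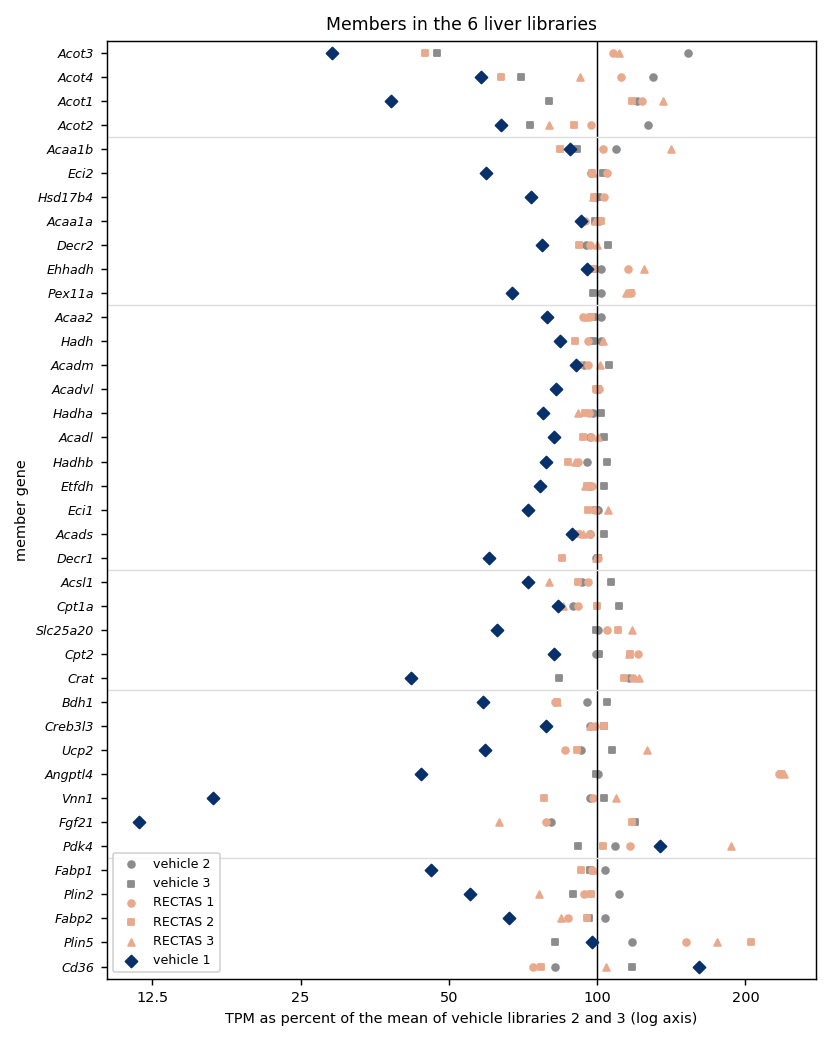
Level of each member in the 6 liver libraries as a percent of the mean of vehicle libraries 2 and 3 (log axis), by role. Vehicle library 1 lies left of the other libraries for most members, down to 11.7% for Fgf21, and right of them for Cd36 at 161%.

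Other genes set this library apart too. The sum of 6 markers of periportal hepatocytes was 3159 TPM in it, against 2058 and 2254 TPM in the other vehicle libraries and 2756 to 3388 TPM with RECTAS. The sum of 6 pericentral markers was 5168 TPM in it, against 6993 and 7206 TPM and 5949 to 6299 TPM in the same order, and no marker of either list was at 0. Within the lists the markers differed. Of the periportal genes Hal, at 454 TPM against 163 and 160 TPM, was far higher in it than in the other vehicle libraries. Pck1, at 856 TPM, lay between them at 832 and 1007 TPM. With RECTAS Hal was at 186, 169 and 164 TPM and Pck1 at 1365, 1595 and 1840 TPM. Hal, Sds, Hsd17b13 and Gls2 were higher in vehicle library 1 than in every RECTAS library, while Cyp2f2 and Pck1 were lower. Of the pericentral genes Glul, glutamine synthetase, was lower in vehicle library 1 at 272 TPM against 595 and 576 TPM. Oat was higher in it at 401 TPM against 277 and 322 TPM. Alb in it, at 62112 TPM, lay between the other vehicle libraries at 57361 and 71491 TPM. The part of these differences in the members' values was not tested.

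By role, positive differences in liver with all libraries numbered 4 of 4 for thioesterases, 7 of 7 for peroxisomal genes, 8 of 11 for mitochondrial beta oxidation, 3 of 5 for activation and carnitine shuttle, 6 of 7 for secreted proteins and regulators, and 4 of 5 for uptake and droplets. Without vehicle library 1 they numbered 1 of 4, 4 of 7, 1 of 11, 3 of 5, 2 of 7 and 1 of 5 in the same order. Angptl4, Plin5, Cpt2, Pex11a and Slc25a20 had RECTAS above both remaining vehicle libraries (background 7.69%). This follows from their separation with all libraries, because leaving out a library cannot make separate groups overlap. Fabp2, Hadha, Acaa2, Bdh1 and Hadhb then had it below both (background 22.5%).

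**Figure D5:**
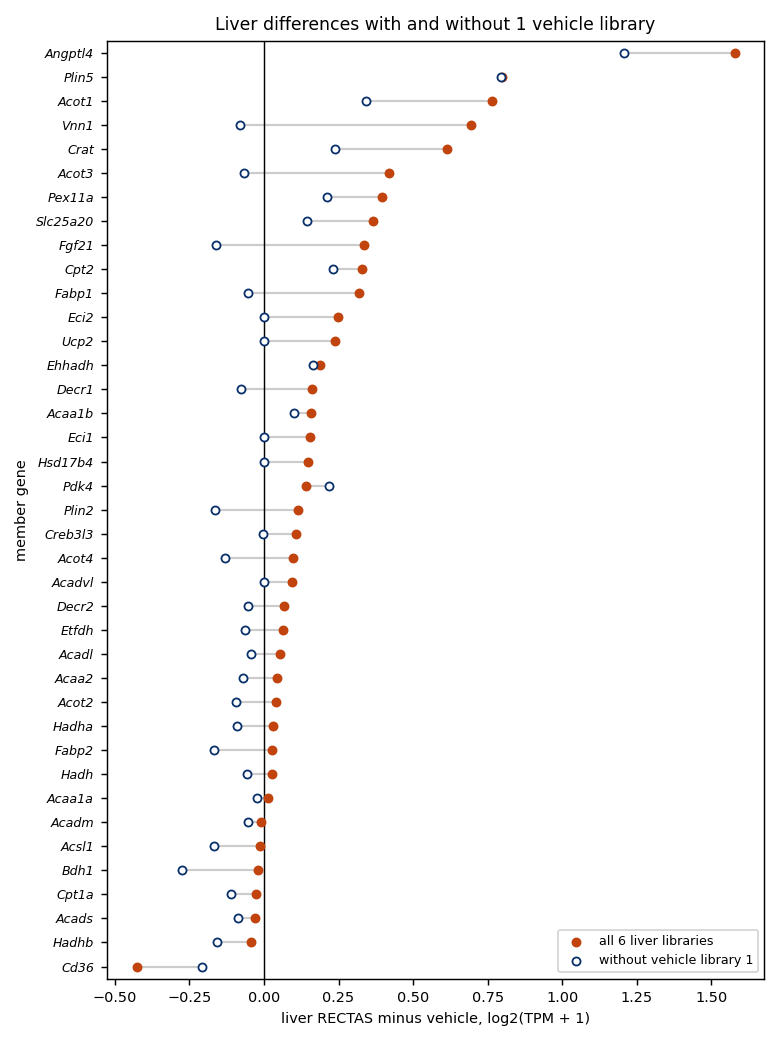
RECTAS minus vehicle difference of each member in liver, log2(TPM + 1), with all 3 vehicle libraries and without vehicle library 1, joined by a line. Most members move toward or below 0, the median from 0.12 to -0.05, while Plin5 stays at 0.80 and Angptl4 moves from 1.58 to 1.21.

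The third comparison set RECTAS against vehicle in lung, where 34 members were tested and Acot3, Acot4, Fabp2, Creb3l3 and Fgf21 were too low. No member passed at a limma adjusted p under 0.05, where 0.00637% of all 15699 genes passed. An unadjusted limma p under 0.05 was found for 5 of 34 members and for 1977 of the 15699 genes. The difference was positive in 19 of 34 members, against 65.4% of all genes, with a median of 0.03 against 0.06. Groups did not overlap for 5 members, all with RECTAS higher, a share near that of all genes (16.1%; RECTAS was lower without overlap in 3.18%).

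Cd36 was at 773, 753 and 723 TPM in vehicle lung and 886, 912 and 843 TPM with RECTAS. The RECTAS libraries were all higher, and the difference was 0.23 (SE 0.06, adjusted p = 0.273). Summed endothelial markers were 1164, 1257 and 1078 TPM with vehicle and 1292, 1459 and 1182 TPM with RECTAS, overlapping ranges; their part in the Cd36 difference was not tested.

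Angptl4 in lung was at 20.4, 13.7 and 17.04 TPM with vehicle and 22.02, 46.6 and 24.2 TPM with RECTAS. RECTAS library 2 was by far the highest, while the other two lay just above the vehicle range. The difference was 0.76 (SE 0.28, adjusted p = 0.358), and 0.43 without that library.

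Pdk4 in lung was at 4.23, 2.84 and 5.38 TPM with vehicle and 6.80, 13.2 and 6.08 TPM with RECTAS, a difference of 0.87 (SE 0.30, adjusted p = 0.337). The same RECTAS library was highest, and without it the difference was 0.56. Summed cardiomyocyte markers were 456, 244 and 603 TPM with vehicle and 510, 1144 and 121 TPM with RECTAS, highest in that library too; their part in these values was not tested.

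Pex11a in lung was at 13.3, 13.9 and 18.05 TPM with vehicle and 20.1, 18.7 and 20.1 TPM with RECTAS (0.37, SE 0.12, adjusted p = 0.318). Hadha, the trifunctional alpha subunit, was at 67.6, 63.3 and 66.1 TPM with vehicle and 77.1, 74.7 and 71.7 TPM with RECTAS (0.18, SE 0.06, adjusted p = 0.32). Its head-to-head neighbour Hadhb was at 76.3, 77.8 and 86.0 TPM with vehicle and 80.8, 90.7 and 78.7 TPM with RECTAS, and there the groups overlapped. Pex11a lost its separation in lung under each of the 3 other scalings, while Angptl4, Cd36, Pdk4 and Hadha stayed separate under them.

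Ucp2 in lung was at 345, 352 and 354 TPM with vehicle and 470, 560 and 347 TPM with RECTAS. RECTAS library 3 lay inside the vehicle range (0.36, adjusted p = 0.417). Over all tested members RECTAS library 2 was highest in 18 of 34, against 24.8% of all genes, and RECTAS library 3 lowest in 14 of 34, against 21.8%. With quantile normalisation the positive differences were 10 of 34, where 52.0% of all genes were positive. They were 12 under median ratio scaling (50.5%), and 12 once mitochondrial genes and the 20 most abundant genes were left out of the total (50.3%). With all libraries, the median of the members lay below that of all genes in the deposited scale and in each of these. Without RECTAS library 3 the order reversed, at 0.081 for the members against 0.075 for all genes. Then 24 of 34 members were positive, against 67.8% of all genes.

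Fabp1 in lung varied together with liver markers. It was at 12.7, 83.4 and 191 TPM with vehicle and 9.56, 15.6 and 86.3 TPM with RECTAS, and the sum of 8 hepatocyte markers, none at 0, was 25.6, 678 and 1829 TPM and 4.56, 77.0 and 733 TPM in the same order. Both were lowest in RECTAS library 1 and highest in vehicle library 3. Creb3l3 and Fabp2 had their highest lung values, 2.42 and 2.76 TPM, in vehicle library 3 as well. The part of liver RNA in these lung values was not tested.

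The fourth comparison set RECTAS against vehicle in colon, where 36 members were tested and Acot3, Plin5 and Fgf21 were too low. No member passed at a limma adjusted p under 0.05, and 0% of all 14282 genes passed. An unadjusted limma p under 0.05 was found for 1 of 36 members and for 231 of the 14282 genes. The difference was positive in 25 of 36 members, against 57.2% of all genes, with a median of 0.05 against 0.02. Acadm was the 1 member with RECTAS above all vehicle libraries (background 3.43%) and Acot1 the 1 with RECTAS below them (background 2.01%).

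Acot1 in colon was at 8.60, 7.91 and 9.21 TPM with vehicle and 6.03, 4.88 and 4.48 TPM with RECTAS. All RECTAS libraries were below all vehicle libraries, and the difference was -0.65 (SE 0.14, adjusted p = 0.9999). Its near copy Acot2 was at 6.16, 4.96 and 5.46 TPM with vehicle and 4.31, 4.72 and 6.29 TPM with RECTAS, overlapping. Acot1 in colon was thus negative where in liver, with overlapping groups, it was positive at 0.76, and neither difference passed. Over the alternatives the liver difference ran from 0.34 to 1.12.

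Acadm, the medium-chain acyl-CoA dehydrogenase, was in colon at 157, 156 and 167 TPM with vehicle and 172, 174 and 210 TPM with RECTAS. The RECTAS libraries were all higher, library 3 most of all, and the difference was 0.21 (SE 0.10, adjusted p = 0.9999). Without RECTAS library 3 it was 0.12.

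Fabp2 in colon was at 832, 1410 and 888 TPM with vehicle and 770, 737 and 1861 TPM with RECTAS. The highest values were vehicle library 2 and RECTAS library 3, and the groups overlapped widely. Summed colonocyte markers were 10066, 28942 and 19205 TPM with vehicle and 16364, 14150 and 29544 TPM with RECTAS, highest in those same libraries. Car1 made up most of each sum, at 25529 and 25706 TPM in those libraries. Krt20 and Aqp8 were also highest in them. Slc26a3 was highest in vehicle library 1 and RECTAS library 3, and Cdhr5 in library 3 of both groups. Car4 was highest in vehicle library 1 and RECTAS library 2. Summed smooth muscle markers were 4154, 1507 and 1419 TPM and 2426, 2430 and 1280 TPM, highest in vehicle library 1. Over the members vehicle library 1 was lowest in 18 of 36, against 13.9% of all genes, and RECTAS library 3 highest in 21 of 36, against 16.6%. Without the former 13 of 36 members were positive (65.0% of all genes), and without the latter 15 of 36 (67.0%); the part of the markers in this was not tested.

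Whether the RECTAS difference itself differed between tissues was tested in a fit of all 18 libraries. No member passed at a limma adjusted p under 0.05 for liver against lung, liver against colon or lung against colon. Of all genes, 0.0228%, 0.0285% and 0.0114% passed. The smallest p-values belonged to Acot1 for liver against colon, 1.41 (SE 0.37, adjusted p = 0.492), and Plin5 for liver against lung, 0.96 (SE 0.26, adjusted p = 0.247). Angptl4 for liver against colon was 1.49 (SE 0.42, adjusted p = 0.554).

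Beyond the members, 155 further genes of the pathway were listed: regulators, remaining oxidation enzymes, ketone body synthesis, omega oxidation, lipid handling and other reported PPARA targets. Of those tested, 133 in liver, 129 in lung and 120 in colon, none passed in RECTAS against vehicle. An unadjusted limma p under 0.05 was found for 18, 15 and 3 of them. Over all genes it was found for 1388 of 11944, 1977 of 15699 and 231 of 14282. In liver 65 of 133 were positive with a median of -0.01, against 32 of 39 for the members and 39.97% of all genes. Without vehicle library 1 the members' count was 12 of 39, where 32.6% of all genes were positive. Positive differences of the further genes numbered 82 of 129 in lung and 82 of 120 in colon, against 65.4% and 57.2% of all genes.

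Ppara itself was at 30.6, 38.1 and 42.5 TPM in vehicle liver and 37.2, 33.2 and 32.1 TPM with RECTAS, overlapping. Cyp4a10, a fatty acid omega hydroxylase, was at 41.3, 199.7 and 234 TPM with vehicle and 217, 255 and 328 TPM with RECTAS, lowest in vehicle library 1.

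Of the further genes tested in liver, 12 of 133 had separate groups with RECTAS higher and 16 had it lower. Over all genes the shares were 5.75% and 13%. Among the listed genes with separate groups in liver, Tsc22d3, a glucocorticoid-responsive gene also reported as a PPARA target, was at 27.0, 54.8 and 54.9 TPM with vehicle and 124, 144 and 159 TPM with RECTAS (1.68, SE 0.27, adjusted p = 0.150). Its lung values were 81.8, 176 and 242 TPM against 357, 398 and 449 TPM (1.39, SE 0.36, adjusted p = 0.274), also separate. In lung 14 of 129 further genes were separate with RECTAS higher, against 16.1% of all genes. Txnip, an inhibitor of thioredoxin and glucose uptake, was at 72.2, 79.7 and 72.5 TPM in vehicle liver and at 41.5, 29.3 and 41.2 TPM with RECTAS (-0.9996, SE 0.14, adjusted p = 0.138). In colon its RECTAS values of 768, 877 and 796 TPM lay above the vehicle values of 721, 740 and 730 TPM. Such a separation was found there for 4 of 120 further genes, against 3.43% of all genes.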

How the data were processed

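The authors deposited gene expression as TPM for 18 libraries; HISAT2 2.2.0, RSEM 1.3.0 and GRCm38 are named per the submitters' processing notes, and libraries were made with a stranded TruSeq kit for mRNA, per the labels. RSEM's TPM values were used as deposited, with no counts, so depth is unknown. Gene IDs matched GENCODE M21 for 55141 of 55401 genes. Values were set to log2(TPM + 1), genes at 1 TPM or more in at least 3 libraries of a fit were kept, and limma 3.58.1 (R 4.3.3) with a mean-variance trend gave p-values adjusted by Benjamini-Hochberg over all genes kept. RECTAS was compared with vehicle in a fit per tissue, tissues in a fit of the 9 vehicle libraries, and differences between tissues in a fit of all 18. The code was tested on simulated data. Members and gene lists were chosen with earlier results of these data known. Named members were those with separate groups, the smallest p-values or the highest levels and largest tissue differences. Identities were computed with Biopython 1.88 on GENCODE coding sequences. Alternatives were pseudocounts of 0.1 and 5, no filter, a filter of 5 TPM, 3 scalings, 1 fit of 18 libraries, a replicate block and leaving out each library. Mut, Peci, Gyk and Imp2 of the pathway list were not analysed here. Some genes of that list are not reported by name here.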

Additional observations from a re-analysis of the deposited data

Results flagged for a closer look

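Txnip, listed among the other reported PPARA targets, had a RECTAS difference in liver that departed from that in the other tissues. The difference between the liver and lung differences was -1.20 on the log2(TPM + 1) scale (SE 0.18, limma adjusted p = 0.0459), and between liver and colon -1.15 (SE 0.18, adjusted p = 0.0446). Txnip was lower in 3 of 3 RECTAS liver libraries than in any vehicle liver library, as were 13% of all genes tested in liver. Both calls lay close to the threshold: over 26 alternatives the first passed in 5, with values from -1.30 to -0.997 and adjusted p from 0.0168 to 0.202, and the second in 8, with values from -1.24 to -0.99 and adjusted p from 0.0396 to 0.271.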

How the results depend on the processing

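With 3 libraries a group and no counts, small differences were not detectable, and counts of positive differences or separate groups turned on single libraries. In liver 1 member, Angptl4, was higher with RECTAS in 1 fit of all 18 libraries, which called 94 of 17537 genes, and 1 without vehicle library 1, which called 6 of 11786. Median ratio scaling gave 12 members with separate groups and RECTAS higher in liver (10.2% of all genes) and 0 in colon (2.62%). In lung, under median ratio scaling, under quantile normalisation and with mitochondrial genes and the 20 most abundant genes left out of the total, positive differences numbered 12, 10 and 12 (50.5%, 52.0% and 50.3% of all genes). Members with RECTAS below all vehicle libraries there numbered 2, 3 and 2 of 34 (6.61%, 6.31% and 6.79% of all genes). Leaving out 1 library gave positive counts of 12 to 36 in liver, 13 to 24 in lung and 13 to 32 in colon, where all genes ran from 32.6% to 46.6%, 61.8% to 67.8% and 45.5% to 67.0%. Leaving out a library cannot make separate groups overlap, so counts of separate members could only stay or rise. Separate groups with RECTAS higher then ran from 5 to 9, 5 to 12 and 1 to 3 (all genes 7.69% to 12.7%, 19.7% to 32.6% and 6.19% to 11.8%). Those with RECTAS lower ran from 0 to 5, 0 to 2 and 1 to 3 (all genes 16.6% to 22.5%, 5.4% to 8.13% and 3.36% to 6.98%). Members lower in vehicle liver than colon numbered 4 under median ratio scaling (37.2% of all genes), and than lung 3 under median ratio scaling (40.9%) and 3 under quantile normalisation (41.6%); the cause was not tested. Same-numbered vehicle and RECTAS libraries correlated at 0.03, -0.01 and -0.02 in liver, 0.41, -0.07 and 0.32 in lung and 0.35, -0.29 and 0.04 in colon, so not every pair passed 0.1 in any tissue and the numbers were not taken to pair the libraries. With the replicate block 0 members passed for RECTAS in any tissue and the vehicle tissue counts were the same.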
